A study of Homo sapiens with 9 samples.

Results

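Described here are 8 genes of 2 related families of cell adhesion proteins, the contactin-associated proteins CNTNAP1, CNTNAP2, CNTNAP3, CNTNAP3B and CNTNAP4 and the contactins CNTN1, CNTN3 and CNTN4, among 60609 genes counted. The genes were taken by name. CNTNAP2 was chosen by its measured level in these libraries, which had been seen to be lower in both clones that overexpress NCBP2, so its differences from the vector clones are given as a description with no test. The question asked of it is how it compares with the genes that lie beside it on the long arm of chromosome 7.

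The RNA came from U2-OS cells, an established human osteosarcoma line, grown in DMEM with 10% fetal bovine serum. NCBP2 is the smaller partner in the cap-binding complex of the nucleus, which holds the cap of newly made RNA. Clone A1 and clone A4 overexpress NCBP2 and have 3 libraries each, called A, B and C, and together these 6 libraries are called the NCBP2 arm. The vector group has 3 libraries, each from a different clone made with the vector alone: library A is vector clone 2, library B is vector clone 3 and library C is vector clone 1. The labels give ribosomal RNA depletion with the KAPA RNA HyperPrep kit as the library method, while their molecule field names polyA RNA, and they do not say whether the libraries of 1 clone are separate cultures. Each NCBP2 clone is a single clone, so in a comparison of that clone with the vector clones a difference between clones and an effect of NCBP2 cannot be told apart, and p-values measure only the spread between these libraries. The arm holds only these 2 clones, and its fit treats their 6 libraries as separate. Its standard errors, intervals and p-values are therefore not those of 6 independent clones.

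Contactins are immunoglobulin-type adhesion proteins held in the membrane by a lipid anchor, and contactin-associated proteins (Caspr proteins) are single-pass membrane proteins of the neurexin superfamily that bind them. In myelinated nerve fibres CNTNAP1 pairs with CNTN1 at the paranode beside the node of Ranvier, and CNTNAP2 pairs with CNTN2 at the juxtaparanode, where potassium channels gather. The families are best known from neurons and myelinating glia, and U2-OS is neither.

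The promoter windows of CNTNAP2 and CNTN4 are shown because these were the genes of the set with the lowest fold changes in the NCBP2 arm. They are taken from RefSeq on GRCh38.p14 and run from 250 bases before the annotated start to 50 after it, 5′ to 3′, with each CG in capitals.
CNTNAP2, chr7:146116551-146116850, plus strand: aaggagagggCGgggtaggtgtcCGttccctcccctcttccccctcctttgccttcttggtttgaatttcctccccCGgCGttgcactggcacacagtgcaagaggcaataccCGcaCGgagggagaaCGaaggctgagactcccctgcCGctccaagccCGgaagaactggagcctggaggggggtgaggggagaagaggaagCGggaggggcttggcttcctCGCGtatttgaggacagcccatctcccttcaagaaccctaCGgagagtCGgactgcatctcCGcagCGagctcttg
CNTN4, chr3:2098616-2098915, plus strand: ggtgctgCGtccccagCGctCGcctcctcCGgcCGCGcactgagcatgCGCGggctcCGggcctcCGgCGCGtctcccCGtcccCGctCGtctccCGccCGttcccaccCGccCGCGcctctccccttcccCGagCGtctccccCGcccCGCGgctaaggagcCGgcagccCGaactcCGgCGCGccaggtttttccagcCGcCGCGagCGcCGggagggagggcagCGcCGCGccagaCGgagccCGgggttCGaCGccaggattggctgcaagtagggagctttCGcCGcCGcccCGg
All 8 genes had an entry in that table, and CNTN1 and CNTN4 each had a further one at a later start. The RefSeq start of CNTNAP2 lies after the first base of its GENCODE span. The CNTNAP2 window held 16 CG at a GC content of 61.7%, beside a median of 14 CG and 58.7% over 35116 promoters of the same length. The CNTN4 window held 46 CG, more than 97.1% of promoters. Of 4 motifs searched on both strands, TATAAA (in 11.5% of promoters), CANNTG, which reads the same on both strands (68.7%), and TATTTAT (4.93%) had no match in either window. CCGCCC, whose CG is also among the capitals, was in 45.0% of promoters, once in the CNTNAP2 window on the minus strand and 4 times in the CNTN4 window on the plus strand. A match is a description of letters and no evidence of binding.

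A pair of stretches shows why CNTNAP3 and CNTNAP3B are hard to count apart. They are coding bases 904 to 963 of each gene's canonical transcript in GENCODE 44, with the bases that differ in capitals.
CNTNAP3: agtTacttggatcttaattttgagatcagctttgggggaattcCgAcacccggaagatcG
CNTNAP3B: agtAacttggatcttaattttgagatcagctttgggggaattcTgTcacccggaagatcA
With positions counted from the first coding base and the CNTNAP3 base given first, the differences are T907A, C947T, A949T and G963A. Over the whole coding sequence of 3864 bases, 44 bases differed and 98.9% were identical. Of all 100-base windows of the CNTNAP3 transcript 30.8% were also found in a transcript of another gene, and of CNTNAP3B 51.6%. For CNTNAP4 the share was 63.2%, because the gene ENSG00000287694 overlaps it on the same strand and covers 51.3% of its exon bases. Reads that fit more than 1 gene are not in these counts, so the levels of these 3 genes are uncertain and rest on the parts that are theirs alone. The share was 0% for the other 5 genes.

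NCBP2 itself had the labelled pattern. Its level in CPM, the count scaled to the size of each library by edgeR's TMM method, was 298.9, 348.4 and 304.7 in the clone A1 libraries A, B and C, 796.3, 1035 and 456.2 in clone A4, against 98.4, 90.6 and 98.3 in the vector libraries. The 9 libraries held between 29234022 and 50554080 counts that name a gene. Clone A1 library A stood apart, with counts in 21823 genes against 25390 to 29787 in the others and a correlation of log2 CPM with them of 0.899 to 0.928. All 8 family genes passed the filter on low counts, which left 21682 genes tested.

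CNTNAP2 was lower than in the vector clones in both NCBP2 clones. It was at 27.4, 25.5 and 21.9 CPM in clone A1 libraries A, B and C (24.95 ± 2.81, SD, n = 3), at 18.5, 23.3 and 20.2 in clone A4 (20.7 ± 2.44, SD, n = 3), and at 84.4, 47.8 and 72.9 in the vector libraries (68.3 ± 18.7, SD, n = 3). Every NCBP2 library lay below every vector library, and the vector clones differed among themselves more than the NCBP2 libraries did, with vector clone 3 the lowest. These values rest on 780 to 1024 counts in the NCBP2 libraries and 2447 to 3894 in the vector libraries. The log2 fold change was -1.58 in the NCBP2 arm (SE 0.191), which is 33.4% of the vector level. It was -1.45 in clone A1 (SE 0.227) and -1.73 in clone A4 (SE 0.229), comparisons that share the vector libraries. Without clone A1 library A, the library that stood apart, it was -1.65 in the arm and -1.52 in clone A1. Groups with all NCBP2 libraries below all vector libraries made up 2.26% of the genes tested in the arm, 8.06% in clone A1 and 5.86% in clone A4. As CNTNAP2 was chosen for this pattern, nothing is read from these shares. In bulk RNA, fewer expressing cells and less RNA per cell cannot be told apart.

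**Figure D1:**
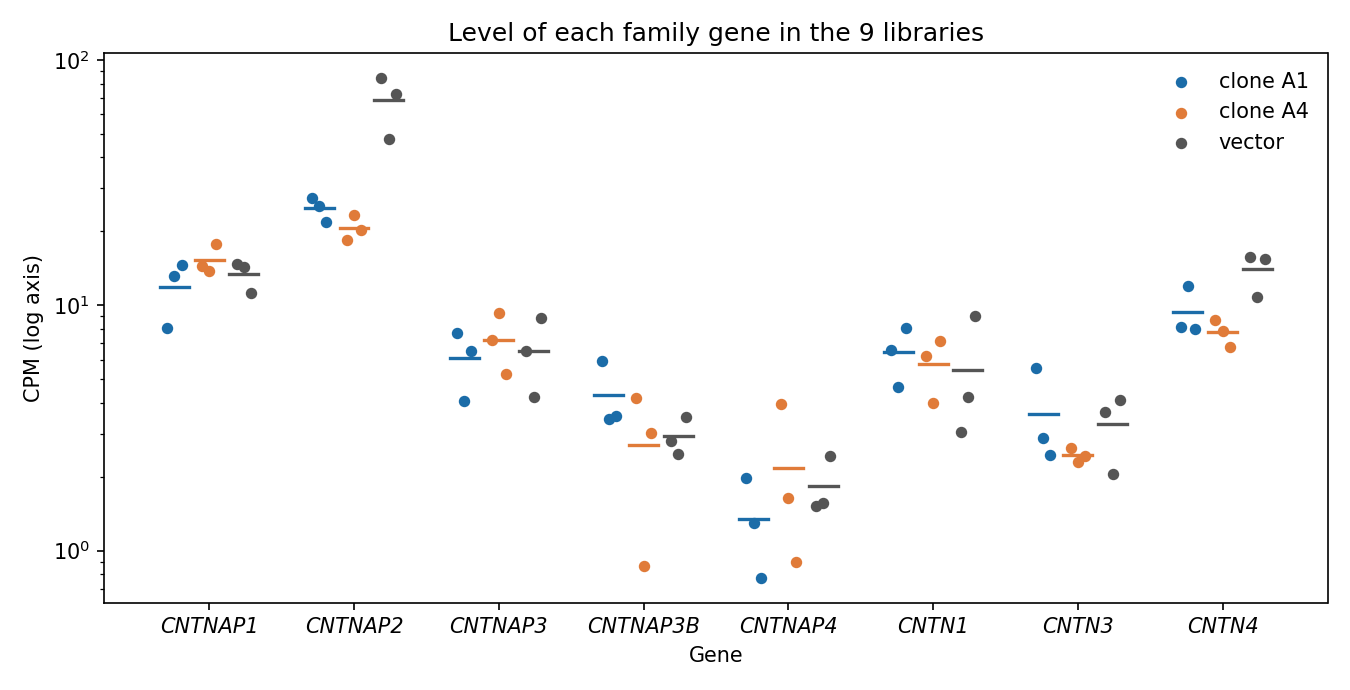
Level of each of the 8 family genes (CPM, log axis) in the 9 libraries, with 1 point per library and a bar for each group's mean. The CNTNAP2 points of clones A1 and A4 lie between 18.5 and 27.4 CPM and those of the vector between 47.8 and 84.4, while for the other genes except CNTN4 the 3 groups cover much the same range.

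Per kilobase of exon, CNTNAP2 had the highest level of the family in the vector libraries and was no longer first in the NCBP2 clones. In the vector libraries it stood at 4.17 ± 1.14 CPM per kb (SD, n = 3), followed by CNTNAP1 at 2.12 ± 0.306, CNTN4 at 1.54 ± 0.307, CNTN1 at 0.71 ± 0.412 and CNTN3 at 0.603 ± 0.20. CNTNAP3 (0.372 ± 0.133), CNTNAP4 (0.230 ± 0.0651) and CNTNAP3B (0.222 ± 0.0401) were the lowest on this scale, and these are the genes that share transcript sequence with others. Only the step from CNTNAP2 to CNTNAP1 and the step from CNTN4 to CNTN1 were wider than the summed SDs of the neighbouring genes. In clone A4, CNTNAP1 at 2.43 ± 0.334 CPM per kb lay above CNTNAP2 at 1.26 ± 0.149, and CNTN4 followed at 0.850 ± 0.107. In clone A1 the level of CNTNAP1 was 1.89 ± 0.543 CPM per kb and that of CNTNAP2 was 1.52 ± 0.171, so the SDs overlapped, and CNTN4 stood at 1.03 ± 0.249.

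CNTNAP2 spans 2305 kb of the long arm of chromosome 7 (GRCh38, GENCODE 44, bases 146116002 to 148420998, plus strand, ENSG00000174469.23), and most of its neighbours also had negative fold changes, of a smaller size. The 10 nearest tested genes on each side reached 2753 kb before it and 648.6 kb after it, and no tested gene overlapped it. Of these 20 neighbours 18 had a negative log2 fold change in the NCBP2 arm, beside 47% of all genes tested, with a median of -0.58 and a range of -1.60 to 0.42. The difference of CNTNAP2 from that median was -1.003, and 1 neighbour, the taste receptor gene TAS2R60, lay below CNTNAP2 at -1.60 (SE 0.963) with no library above 0.664 CPM. In clone A1 18 of 20 neighbours were lower (51.6% of all genes) with a median of -0.65, and in clone A4 18 of 20 (46.4% of all genes) with a median of -0.61. The difference of CNTNAP2 from the median was -0.80 in clone A1 and -1.12 in clone A4. No neighbour passed edgeR's adjusted p in the arm, where 0.0184% of all genes did, and 7 had an unadjusted p under 0.05, all lower, as did 2.96% of all genes. DESeq2 called 2 of the 20 in the arm, CUL1 and PDIA4, and 103 of all 21682 genes in either direction.

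The genes named next lie after CNTNAP2, towards the end of the chromosome. CUL1, the scaffold of a ubiquitin ligase that lies 276.9 kb after CNTNAP2, was at 35.7, 29.3 and 37.9 CPM in clone A1, at 30.9, 37.5 and 35.0 in clone A4, against 68.4, 48.2 and 52.2 in the vector libraries. All its NCBP2 libraries were below all vector libraries, with a log2 fold change of -0.71 (SE 0.160, adjusted p = 0.276 by edgeR). EZH2, the enzyme that methylates histone H3 in the Polycomb complex, had a log2 fold change of -0.60 (SE 0.159, adjusted p = 0.431 by edgeR). PDIA4, a protein disulfide isomerase of the endoplasmic reticulum, had -0.67 (SE 0.143, adjusted p = 0.198 by edgeR). Of the next zinc-finger genes, ZNF786 had -0.80 (SE 0.385) and ZNF425 -2.77 (SE 0.930, adjusted p = 0.629 by edgeR). ZNF425 lies just beyond the 20 neighbours and had a lower fold change than CNTNAP2. Its NCBP2 libraries were all below its vector libraries, as in 2.26% of all genes. For CUL1, EZH2 and PDIA4 clone A4 and clone A1 differed by at most 0.10 on the log2 scale. ZNF786 differed by 0.71 (SE 0.430) and ZNF425 by 0.66 (SE 1.23) in clone A4 against clone A1. CNTNAP2 differed by -0.27 (SE 0.223) between the same clones.

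Before CNTNAP2, TCAF1 and TCAF2, regulators of a cold-sensing channel, had log2 fold changes in the arm of -0.51 (SE 0.159, adjusted p = 0.565 by edgeR) and -1.11 (SE 0.385, adjusted p = 0.645 by edgeR), and in both every NCBP2 library lay below every vector library. Of the 20 neighbours 5 had such separate groups, TCAF1, TCAF2, CUL1, EZH2 and PDIA4, beside 2.26% of all genes with every NCBP2 library below every vector library.

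Along chromosome 7 the difference changed with distance. The median log2 fold change in the NCBP2 arm was 0.02 over 404 genes more than 80 Mb before CNTNAP2 (193 lower), -0.10 over 326 genes at 40 to 80 Mb (194 lower) and -0.22 over 74 genes at 20 to 40 Mb (55 lower). It was -0.38 over 80 genes at 10 to 20 Mb (66 lower), -0.38 over 32 genes at 5 to 10 Mb (26 lower) and -0.43 over 38 genes within 5 Mb (28 lower). After CNTNAP2 it was -0.71 over 28 genes within 2 Mb (27 lower) and -0.64 over the last 50 genes (42 lower). Each clone had negative medians within 20 Mb before CNTNAP2 and in both windows after it. Of 1033 chromosome 7 genes tested, 11 had a lower fold change than CNTNAP2, and of the 741 with a mean of at least 1 CPM, 2 did.

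**Figure D2:**
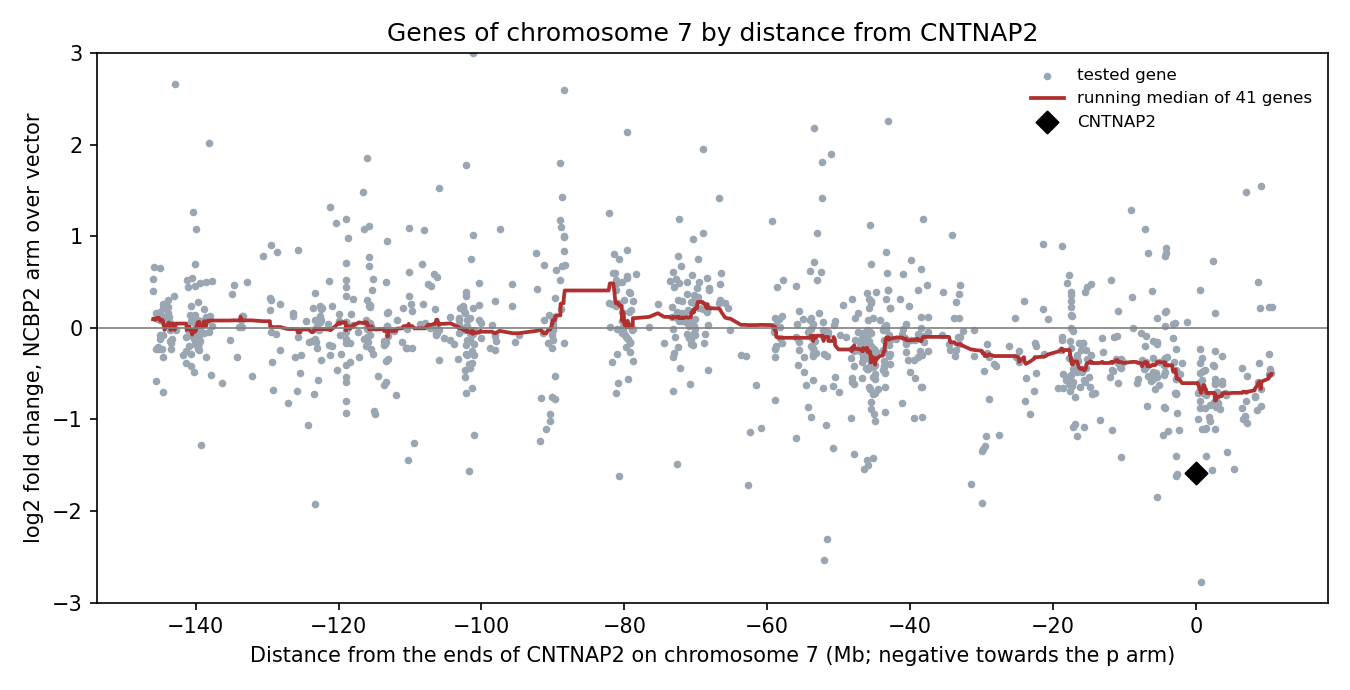
Log2 fold change of each tested chromosome 7 gene, NCBP2 arm over vector, against its distance from CNTNAP2 in Mb, with a running median over 41 genes (red line) and CNTNAP2 as a black diamond. The vertical axis is limited to -3 to 3 with genes beyond it not drawn, and the running median falls below 0 towards CNTNAP2 and the end of the chromosome, with CNTNAP2 at -1.58 below it.

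Library by library, CNTNAP2 was below its neighbours in all 6 NCBP2 libraries. On the log2 scale against the vector mean, CNTNAP2 was at -1.27, -1.38 and -1.60 in clone A1 libraries A, B and C, where the medians of its neighbours were -0.66, -0.51 and -0.57. In clone A4 it was at -1.84, -1.51 and -1.72 and the neighbours at -0.81, -0.51 and -0.39. The vector libraries A, B and C had CNTNAP2 at 0.34, -0.48 and 0.13 and the neighbours at 0.17, 0.03 and -0.20. The gap between CNTNAP2 and its neighbours ran from -1.32 to -0.61 in the NCBP2 libraries, with clone A1 library A the smallest, and from -0.50 to 0.33 in the vector libraries. These ranges did not overlap, but vector clone 3 at -0.50 came close to clone A1 library A at -0.61. As CNTNAP2 was chosen for its lower level in both NCBP2 clones, nothing is read from this separation. The part of the regional difference in the level of CNTNAP2 was not tested.

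**Figure D3:**
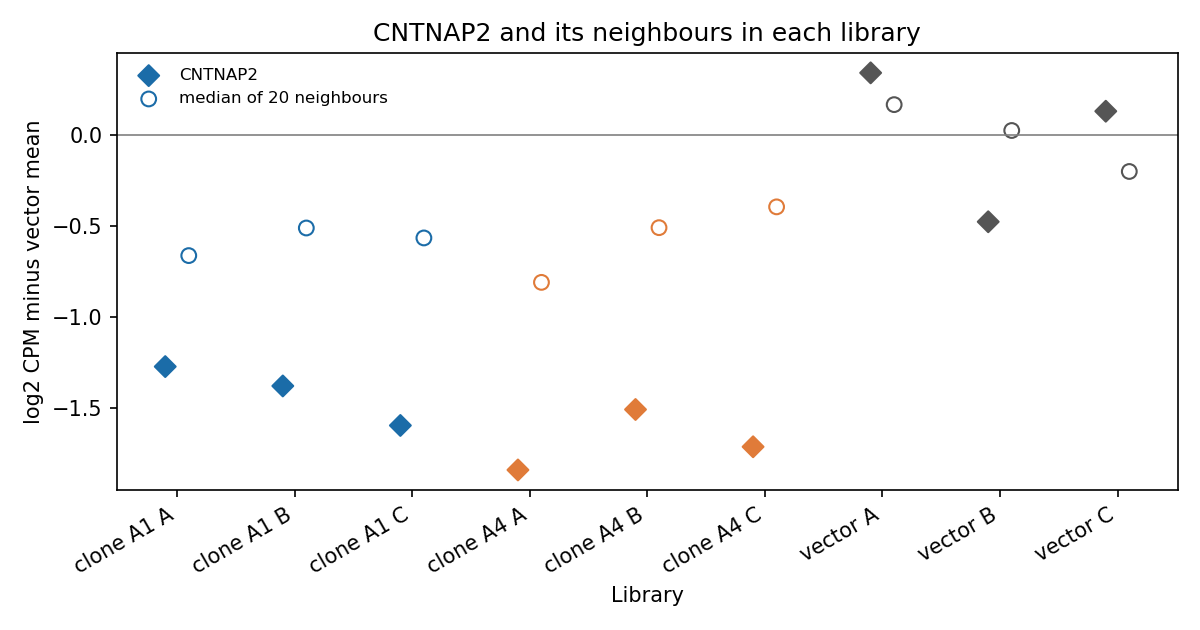
CNTNAP2 (filled diamonds) and the median of its 20 chromosome 7 neighbours (open circles) in each of the 9 libraries, as log2 CPM minus the mean of the vector libraries. The diamonds of the 6 NCBP2 libraries lie between -1.84 and -1.27, each below its circle, and the circles of these libraries lie between -0.81 and -0.39.

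The other contactin-associated genes had fold changes near 0 in the arm, and none passed the test. CNTNAP1, the paranodal protein (chromosome 17, bases 42682531 to 42699993), was at 8.06, 13.1 and 14.6 CPM in clone A1, at 14.5, 13.8 and 17.7 in clone A4, against 14.7, 14.2 and 11.2 in the vector libraries. The groups overlapped, and the value that stood lowest was clone A1 library A. Its log2 fold change in the arm was 0.03 with a 95% interval of -0.49 to 0.54 (adjusted p = 0.999 by edgeR). CNTNAP3 (chromosome 9, bases 39064710 to 39288315) was at 7.67, 4.06 and 6.51 CPM in clone A1, at 7.22, 9.26 and 5.24 in clone A4, against 6.50, 4.22 and 8.88 in the vector libraries. These ranges also overlapped, with a log2 fold change of 0.03 and an interval of -0.64 to 0.70. CNTNAP3B, its near copy on the same chromosome (bases 41890314 to 42129510), was at 5.95, 3.44 and 3.55 CPM in clone A1, 4.2, 0.864 and 3.02 in clone A4, against 2.79, 2.48 and 3.51 in the vector libraries. Clone A4 library B was the lowest, and the log2 fold change was 0.26 with an interval of -0.71 to 1.22. The pseudogene CNTNAP3P7 was counted at 2.05 to 2.92 CPM over the 9 libraries.

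CNTNAP4, known from synapses of inhibitory interneurons (chromosome 16, bases 76277278 to 76560757), had few counts. It was at 1.97, 1.29 and 0.776 CPM in clone A1, 3.97, 1.64 and 0.896 in clone A4, against 1.52, 1.56 and 2.44 in the vector libraries. Its log2 fold change in the arm was -0.06 with an interval of -1.15 to 1.02. The overlapping gene ENSG00000287694 had 2 counts in clone A1 library C and 0 in the other libraries. The 20 neighbours of CNTNAP4 on chromosome 16 had a median log2 fold change of -0.18, and 18 were lower. The medians beside CNTNAP1, CNTNAP3 and CNTNAP3B were -0.0047, 0.26 and 0.25.

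CNTN4, a contactin of developing axons that spans 959.1 kb of chromosome 3 (bases 2098813 to 3057959), was the only one of the 7 genes beside CNTNAP2 with an unadjusted p under 0.05 in the arm, and it did not pass the adjusted one. It was at 8.16, 12.0 and 7.99 CPM in clone A1 (9.39 ± 2.28, SD, n = 3), at 8.69, 7.85 and 6.74 in clone A4 (7.76 ± 0.976, SD, n = 3) and at 15.8, 10.8 and 15.5 in the vector libraries (14.0 ± 2.80, SD, n = 3). All 6 NCBP2 libraries were below the vector mean, but clone A1 library B at 12.0 lay above vector clone 3 at 10.8. The log2 fold change was -0.71 in the arm (SE 0.229, unadjusted p = 0.00836 and adjusted p = 0.577 by edgeR), where 5.71% of all genes had an unadjusted p under 0.05. It was -0.58 in clone A1 (SE 0.265, adjusted p = 0.665 by edgeR) and -0.85 in clone A4 (SE 0.266, adjusted p = 0.529 by edgeR), where 0.0646% and 0.115% of all genes passed. Without clone A1 library A the value in the arm was -0.70. Among the vector libraries CNTN4 and CNTNAP2 were lowest in vector clone 3, as were CNTNAP3, CNTNAP3B and CNTN3. The median of tested genes spanning over 500 kb was also lowest there, at -0.16 on the log2 scale against the vector mean. The 13 tested genes beside CNTN4 had a median of -0.14 with 8 lower, among them its relative CNTN6 at -0.79 (SE 0.455) and LRRN1 at -0.54.

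CNTN1, the paranodal partner of CNTNAP1 (chromosome 12, bases 40692439 to 41072415), was at 6.55, 4.65 and 8.06 CPM in clone A1, 6.19, 3.98 and 7.12 in clone A4, against 3.05, 4.23 and 9.0 in the vector libraries. The vector clones held both the lowest and the highest value, and the log2 fold change was 0.17 with an interval of -0.59 to 0.92. CNTN3 (chromosome 3, bases 74262568 to 74614659) was at 5.53, 2.88 and 2.45 CPM in clone A1, 2.62, 2.30 and 2.42 in clone A4, against 3.68, 2.05 and 4.10 in the vector libraries. Clone A1 library A was the highest of all, and the log2 fold change was -0.12 with an interval of -0.90 to 0.67. Without that library it was -0.37 in the arm, and in clone A1 it went from 0.14 to -0.29. The fold change of CNTNAP2 in the arm lies outside the 95% intervals of CNTNAP1, CNTNAP3, CNTNAP3B, CNTNAP4, CNTN1, CNTN3 and CNTN4 there. These intervals treat the 6 libraries of 2 clones as separate, and CNTNAP2 was chosen for its low values. No conclusion on the family is drawn from them. Among the family genes outside the set, CNTN5 reached 2.60 CPM in clone A1 library A and at most 0.629 in the others. CNTN2, the juxtaparanodal partner of CNTNAP2, and CNTNAP5 did not pass the filter on low counts. The antisense genes CNTNAP2-AS1, CNTN4-AS1 and CNTN4-AS2 had 0 counts in all libraries.

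**Figure D4:**
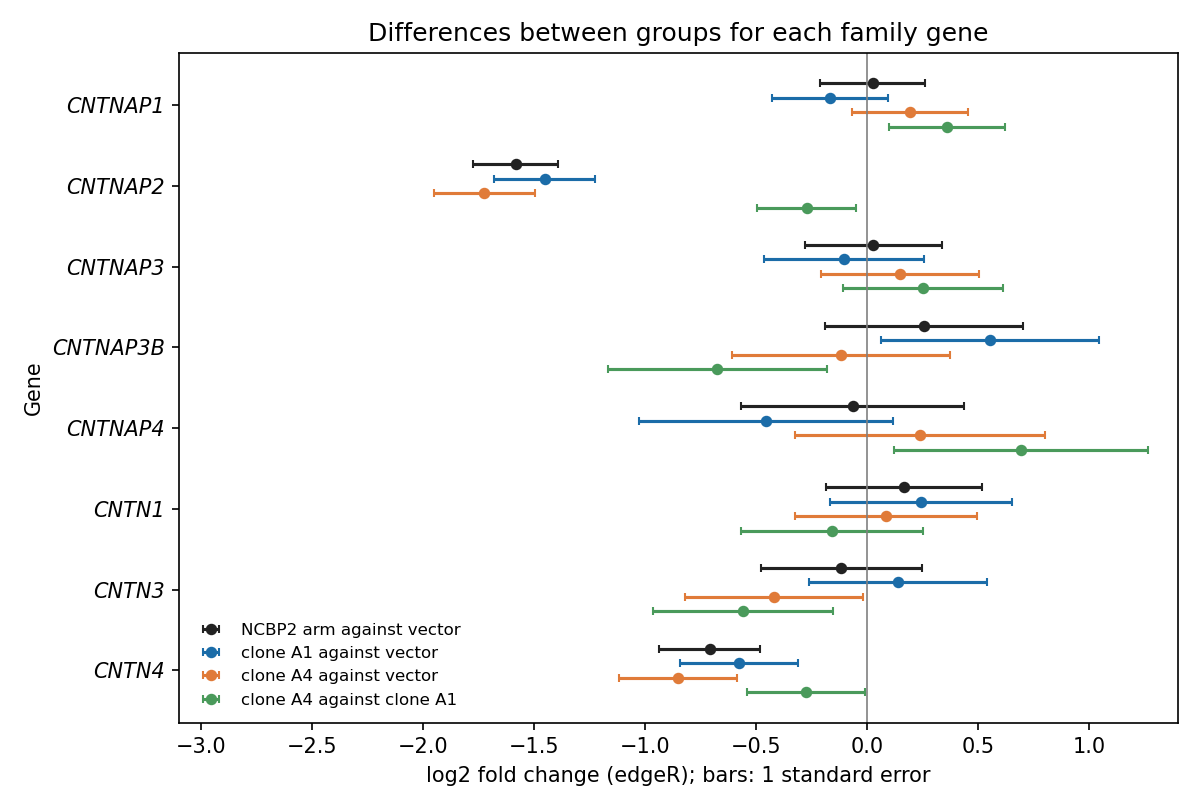
Log2 fold change of each family gene for the NCBP2 arm, clone A1 and clone A4 against vector and for clone A4 against clone A1, with bars of 1 standard error from the edgeR fit. CNTNAP2 lies at -1.73 to -1.45 in the 3 comparisons with vector, CNTN4 at -0.85 to -0.58, and the other 6 genes lie closer to 0 in the arm.

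Between the 2 NCBP2 clones none of the 8 genes passed edgeR's adjusted p, where 0.161% of all genes did. None had an unadjusted p under 0.05 with edgeR, where 6.63% of all genes did, or with DESeq2. CNTNAP2 had a log2 fold change of -0.27, with a 95% interval of -0.76 to 0.21 (adjusted p = 0.841 by edgeR), and the clones overlapped, whereas 13.6% of all genes had separate clones. As CNTNAP2 was chosen for low values in both of these clones, nothing is read from their overlap. The neighbours of CNTNAP2 had a median of 0.14 in this contrast, with 7 of 20 lower beside 46.8% of all genes. CNTN4 had -0.28 (interval -0.85 to 0.30). The widest were CNTNAP4 at 0.69 (interval -0.55 to 1.94; -0.084 without clone A4 library A), CNTNAP3B at -0.67 (interval -1.75 to 0.40) and CNTN3 at -0.56 (interval -1.44 to 0.32). NCBP2 itself had a log2 fold change of 1.26 here (SE 0.239, adjusted p = 0.0764 by edgeR).

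Genes of proteins that work with these families mostly passed the filter on low counts, and none passed edgeR's adjusted p in the arm. Of 17 tested among 19 node, paranode and juxtaparanode partners 6 had negative fold changes, with a median of 0.12 beside 0.02 for all genes tested. ANK2, an ankyrin that ties membrane proteins to the spectrin skeleton, was at 16.6, 16.0 and 15.6 CPM in clone A1, 20.2, 19.7 and 21.7 in clone A4, against 31.2, 20.5 and 35.7 in the vector libraries. Only clone A4 overlapped the vector group, and 8.06% of all genes had clone A1 separate and lower. The log2 fold change of ANK2 in the arm was -0.67 (SE 0.201, unadjusted p = 0.00527 and adjusted p = 0.551 by edgeR). In clone A1 it was -0.86 (SE 0.224, unadjusted p = 0.00225 and adjusted p = 0.277 by edgeR), which DESeq2 called among 274 of all 21682 genes. NFASC, whose glial form binds the CNTNAP1 and CNTN1 pair, had -0.28 (SE 0.241). EPB41L3, the cytoskeletal adaptor of contactin-associated proteins, had 0.31 in the arm (SE 0.213) and -0.63 in clone A4 against clone A1 (SE 0.174, adjusted p = 0.327 by edgeR). DESeq2 called none of the 17 in the arm.

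Of 10 tested among 12 ligands and co-receptors of contactins 4 had negative fold changes in the arm, with a median of 0.10. PTPRG, the receptor phosphatase that binds CNTN3, CNTN4 and other contactins, was at 402, 357 and 331 CPM in clone A1, 385, 401 and 309 in clone A4, against 392, 256 and 340 in the vector libraries, and the groups overlapped. APP, the amyloid precursor protein and a ligand of CNTN4, had a log2 fold change of -0.29 (SE 0.131, unadjusted p = 0.0451 and adjusted p = 0.854 by edgeR). PTPRZ1, the phosphatase that binds CNTN1, reached at most 0.774 CPM. NRCAM, an adhesion protein of the L1 family, had 0.46 in the arm (SE 0.359) and -0.86 between the clones (SE 0.341, adjusted p = 0.652 by edgeR). FYN, a kinase associated with contactins, had 0.55 between the clones (SE 0.206, adjusted p = 0.596 by edgeR).

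Of the 7 neurexins and neuroligins, synaptic relatives and partners of the Caspr proteins, 3 had negative fold changes in the arm and the median was 0.01. NRXN3, a presynaptic neurexin, was at 27.2, 20.8 and 25.4 CPM in clone A1, 27.2, 26.8 and 30.01 in clone A4, against 33.9, 35.6 and 51.8 in the vector libraries. All its NCBP2 libraries lay below all vector libraries, as in 2.26% of all genes. The log2 fold change of NRXN3 in the arm was -0.62 (SE 0.18, unadjusted p = 0.00408 and adjusted p = 0.509 by edgeR). NLGN3, a neuroligin, had 1.397 in clone A4 against clone A1 (SE 0.570, adjusted p = 0.675 by edgeR) at levels of 0.352 to 3.06 CPM.

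Both transcription factors on the list of those that bind CNTNAP2 had negative values in the arm that did not pass the test. FOXP2, a repressor of CNTNAP2 in neurons, was at 0, 0.108 and 0.259 CPM in clone A1, 0.608, 1.46 and 1.12 in clone A4, against 3.51, 1.21 and 1.15 in the vector libraries. Its log2 fold change in the arm was -1.70 (SE 0.867, adjusted p = 0.913 by edgeR). FOXP2 is also a gene of chromosome 7, and the part of the regional difference in its level was not tested. Every library of clone A1 lay below every vector library, as in 8.06% of all genes. The log2 fold change of clone A1 against vector was -3.89 (SE 0.897, unadjusted p = 0.000914 and adjusted p = 0.207 by edgeR), which DESeq2 called among 274 of all 21682 genes. Clone A4 against clone A1 gave a value of 3.01 on the log2 scale (SE 0.879, unadjusted p = 0.00485 and adjusted p = 0.359 by edgeR). DESeq2 also called FOXP2 in that contrast, among 246 of all 21682 genes. TCF4, an E-box binding factor, had -0.38 in the arm (SE 0.203, adjusted p = 0.946 by edgeR), with TCF4 in vector clone 3 at 156 CPM against 311 and 272 in the other vector clones.

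**Figure D5:**
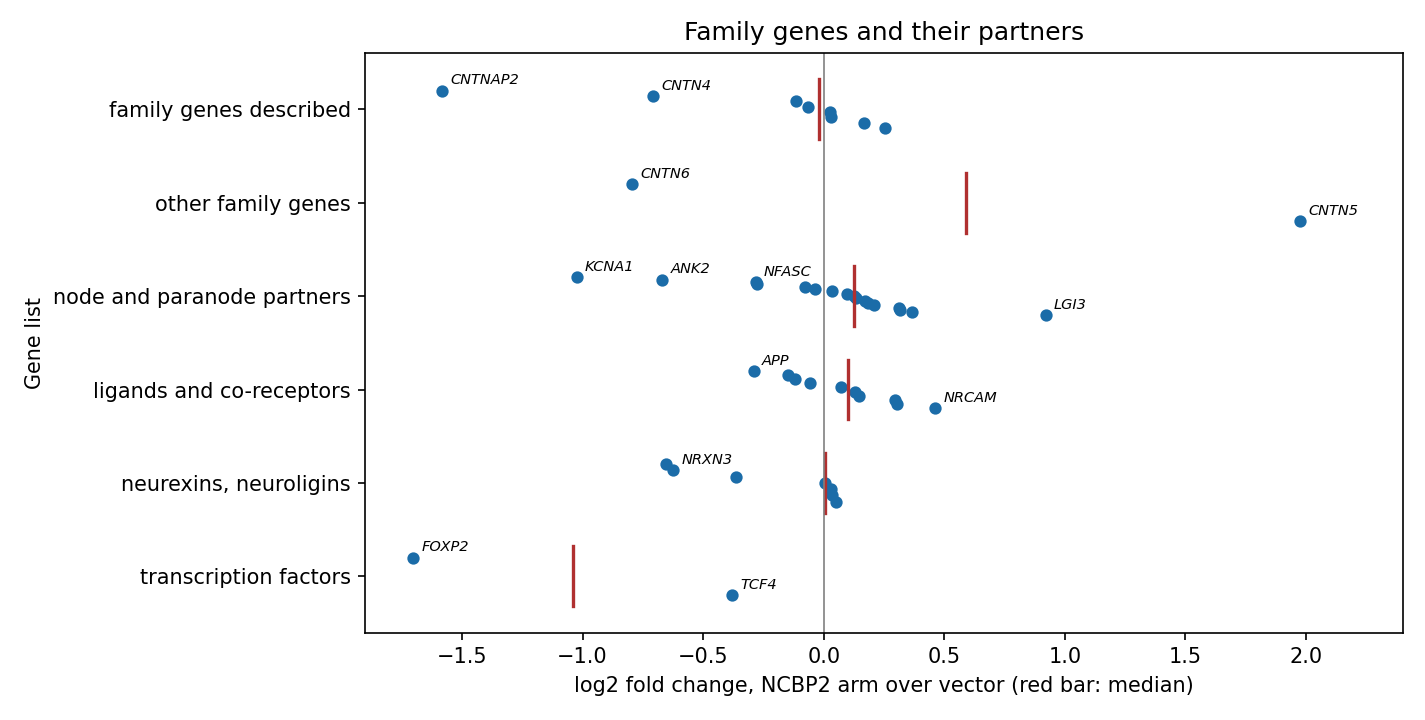
Log2 fold change, NCBP2 arm over vector, of the family genes and of the tested genes of each partner list, with 1 point per gene and a red bar for each list's median. CNTNAP2 at -1.58 and FOXP2 at -1.70 lie farthest to the left, and the medians of the node and paranode, ligand and neurexin lists lie between 0.01 and 0.12.

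The genes most like CNTNAP2 over the 9 libraries were taken by Pearson's r of log2 CPM among 13530 genes with a mean of at least 1 CPM. They were EFEMP1, a matrix glycoprotein (r = 0.982), the noncoding LINC01029 (r = 0.968), DENND11 (r = 0.954), CBX5, a heterochromatin protein (r = 0.953), and RBM33, an RNA-binding protein (r = 0.952). EFEMP1 was at 66.9, 55.3 and 55.5 CPM in clone A1, 53.3, 59.5 and 55.8 in clone A4, against 177, 121 and 133 in the vector libraries. Its lowest vector clone was vector clone 3, as for CNTNAP2 and several other genes named here. DENND11 and RBM33 are on chromosome 7. Within the family the values were 0.881 for CNTN4, 0.376 for CNTN3, 0.145 for CNTNAP4, 0.070 for CNTNAP3, -0.006 for CNTNAP3B, -0.158 for CNTNAP1 and -0.293 for CNTN1. These correlations describe 9 libraries in 3 groups.

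CNTNAP2 and CNTN4 are very long genes, so the long genes as a set were read beside them. The 345 tested genes that span over 500 kb, CNTNAP2 and CNTN4 among them, had a median log2 fold change of -0.08 in the arm. Of these 201 were lower (58.3%, beside 47% of all genes). The 321 that are not on chromosome 7 had a median of -0.07, with 183 lower (57.0%). In the arm 39 of the 345 were lower at an unadjusted p under 0.05, beside 2.96% of all genes, and 10 were higher. In clone A1 53 were lower at that p, beside 4.27% of all genes, and 10 were higher. In clone A4 28 of the 345 were lower at that p, beside 597 of all 21682 genes, and 16 were higher. The median was -0.16 in clone A1, -0.05 in clone A4 and 0.18 between the clones. By library the median of these genes against the vector mean ran from -0.32 to -0.13 in clone A1, from -0.09 to 0.14 in clone A4 and from -0.16 to 0.10 in the vector group.

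Markers of other cell types were read beside these results. The 7 osteoblast and mesenchymal markers summed to 3687 to 5357 CPM in the NCBP2 arm and 5145 to 6008 in the vector group, with SP7 and COL1A2 at or near 0. Of the 6 that were tested 4 had negative fold changes in the arm and 2 had positive ones, RUNX2 at 0.20 (SE 0.160) and ALPL at 0.15 (SE 0.436). VIM was lower in every NCBP2 library than in every vector library, as were 2.26% of all genes. Its log2 fold change was -0.43 in the arm (SE 0.124, unadjusted p = 0.00376 and adjusted p = 0.501 by edgeR). The 7 neuron markers summed to 39.1 to 92.4 CPM in the arm and 93.6 to 101.6 in the vector group, ranges that lay close together without overlap. MAP2 carried most of that sum, at 23.4 to 67.9 against 69.3 to 83.4 CPM. RBFOX3 had a log2 fold change of -1.55 in the arm (SE 0.458, adjusted p = 0.544 by edgeR). SNAP25 had 0.82 (SE 0.227, adjusted p = 0.49 by edgeR) and was called by DESeq2, among 103 of all 21682 genes. STMN2 reached at most 0.130 CPM and GAP43 0.644. The 5 markers of Schwann cells and oligodendrocytes summed to 1.12 to 2.32 CPM in the arm and 1.63 to 3.98 in the vector group with SOX10 and S100B at 0 counts. The 3 epithelial markers summed to 3.95 to 8.27 and 7.36 to 9.08, and the 3 leukocyte markers to 0.400 to 2.01 and 0.546 to 1.34, with CD3E at 0 counts. Of the epithelial markers KRT5, a keratin, was at -2.01 in the arm (SE 0.609, unadjusted p = 0.00556 and adjusted p = 0.552 by edgeR). CDH1, an epithelial cadherin, was at -0.98 (SE 0.383, unadjusted p = 0.0235 and adjusted p = 0.746 by edgeR). In both every NCBP2 library lay below every vector library, as in 2.26% of all genes. The remaining epithelial marker, EPCAM, went the other way at 0.39 in the arm (SE 0.323), and its groups overlapped. DESeq2 called KRT5 in clone A1, among 274 of all 21682 genes. For KRT5 edgeR gave -3.38 there (SE 0.607, adjusted p = 0.0902). The part of these markers in the CNTNAP2 result was not tested.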

How the data were processed

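RNA of 9 U2-OS libraries was counted per gene by the authors. The submitters' processing notes name STAR 2.7.1a and GRCh38, without their role. The deposited values are raw whole-number counts in 3 columns of a STAR gene-count layout, per the file headers and values; column 3 (sense strand) was used, column 4 is the opposite strand and column 2 ignores strand. The 4 leading lines that name no gene took 44.5% to 63.6% of reads and were left out. Identifiers were matched to GENCODE 44 on GRCh38 (60295 of 60609); the annotation behind the counts is not given in the sources used here. Counts were fitted with edgeR 4.0.16 in R 4.3.3 over all 21682 genes that passed filterByExpr (TMM, robust quasi-likelihood test, Benjamini-Hochberg adjusted p under 0.05), checked on simulated counts. The arm was fitted as 6 against 3 libraries, and the clone comparisons with 3 groups. CPM is scaled by TMM and log2 CPM uses a prior count of 2. Genes and lists were chosen with earlier results of these data known. Named genes were all 8 family genes and the other 4 of the family, the 5 nearest coding genes on each side of CNTNAP2, list genes with an unadjusted p under 0.05 in the arm or between clones, preset partners and the 5 genes most like CNTNAP2; other neighbours, markers and ENSG00000287694 were added after their values were seen. Results of some genes named by this rule are not reported here. Alternatives were DESeq2 1.42.0, RLE factors, no filter, both strands, only the groups compared, counts summed per clone, the replicate letter as a block, each library left out and other neighbourhoods.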

Additional observations from a re-analysis of the deposited data

Results flagged for a closer look

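In 3 of the 8 family genes the highest NCBP2 library stood apart from the other 5 by Dixon's test, where chance marks about 1 group in 20. CNTNAP4 reached 3.97 CPM in clone A4 library A, with a gap of 0.6254 of the range. CNTN3 reached 5.53 CPM in clone A1 library A, the library with the fewest genes counted, with a gap of 0.820. CNTN4 reached 12.0 CPM in clone A1 library B, with a gap of 0.631, and that library is the one that overlaps the vector group. The gaps of CNTNAP4 and CNTN4 were only just above the critical value of the test.

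On the opposite strand, which the comparisons did not use, CNTN6 had a mean of 1.52 CPM in clone A4, from 74, 29 and 105 counts in libraries A, B and C. The vector libraries A, B and C had 17, 0 and 0 counts there, and clone A1 had 11, 9 and 0.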

How the results depend on the processing

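CNTNAP2 kept its direction under every alternative, and CNTN4 kept its direction and did not pass the adjusted threshold in any of them (the lowest adjusted p in the arm was 0.181). Of 480 values of the 8 genes under an alternative, 30 changed sign, none of them of CNTNAP2 or CNTN4, and 450 kept their direction. Those with a test also kept their side of the threshold, while CNTNAP2 against vector, which has no test, was compared by value only and moved by less than the spread between replicates. Without each library in turn, CNTNAP2 ranged from -1.79 to -1.41 in the arm, -1.65 to -1.28 in clone A1, -1.93 to -1.56 in clone A4 and -0.38 to -0.20 between the clones. In the same order its neighbours' median ranged from -0.73 to -0.46, -0.73 to -0.51, -0.73 to -0.51 and -0.016 to 0.29, and CNTNAP2 minus that median from -1.18 to -0.82, -1.05 to -0.67, -1.36 to -0.96 and -0.49 to -0.26. Leaving out a library changed the sign of some genes. In the arm the ranges were -0.11 to 0.13 for CNTNAP1, -0.21 to 0.30 for CNTNAP3, -0.49 to 0.17 for CNTNAP4, -0.13 to 0.72 for CNTN1 and -0.37 to 0.061 for CNTN3. In clone A1 they were -0.34 to 0.056 for CNTNAP1, -0.34 to 0.17 for CNTNAP3, -0.045 to 0.80 for CNTN1 and -0.29 to 0.35 for CNTN3. In clone A4 they were -0.088 to 0.42 for CNTNAP3, -0.61 to 0.29 for CNTNAP3B, -0.55 to 0.59 for CNTNAP4 and -0.21 to 0.63 for CNTN1, and between the clones -0.084 to 1.06 for CNTNAP4 and -0.35 to 0.047 for CNTN1. CNTNAP1 in the arm became -0.095 when strand was ignored.

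Counts of genes called depended on the tool and filter, and the cause was not tested. In the arm 4 genes passed with edgeR, 103 with DESeq2, 20 without the filter, 1 to 8 with a library left out and 0 with counts summed per clone, where 906 had an unadjusted p under 0.05. In clone A1 the 14 genes became 274 with DESeq2, 312 without the filter, 7 with only the groups compared and 2 to 14 with a library left out. In clone A4 the 25 genes became 185, 163 without the filter and 7 to 41 with a library left out. Between the clones the 35 genes became 246, 231 without the filter and 10 to 56 with a library left out. The replicate letter was not used to pair the libraries in the main fits. Same-letter libraries of different groups had deviations correlated at -0.10 to 0.18, and libraries of different letters at -0.27 to 0.22. These overlapping ranges cannot exclude a pairing. With the letter as a block 13 genes passed in the arm, 38 in clone A1, 53 in clone A4 and 51 between the clones. CNTNAP4 in clone A4 was then at -0.041.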
